A study of Homo sapiens with 2 samples.

Results

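The arrays carried 41000 probes for transcripts, of which 40736 were printed at a single spot and 264 at 10 spots each. The transcripts described here are the 259 whose probe was printed 10 times, chosen by that repeat count in the array design and without JUN, PCNA, MMP2, CDC42 and GAPDH. Repeated probes are placed by the manufacturer over the whole surface of the slide, so that the agreement of their spots measures how well a single array reads a transcript. They are a broad panel of well-studied human genes, among them cell cycle regulators, kinases, cytokines, matrix proteins, plasma proteins and reference genes, and were not selected for retinal cells. Their use is that each ratio rests on several spots at different positions and not on 1 spot.

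The comparison was of 2 arrays, 1 per condition. One came from Y79 cells without siRNA, and the other from Y79 cells collected 48 h after treatment with an siRNA against Ep-CAM, the epithelial cell adhesion molecule, listed under its older symbol TACSTD1. Y79 is an established human retinoblastoma line that grows in suspension. By the study's methods both cultures had first been exposed to the DNA demethylating agent azacytidine (AZC), which the labels do not give, and no array with a nonsilencing siRNA was analysed here, so an effect of the transfection and one of the loss of Ep-CAM cannot be told apart. The comparison asks which transcripts differ after Ep-CAM siRNA.

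Each value is the log2 ratio of the processed signal, siRNA-treated over siRNA-untreated, after each array was divided by its median over transcript spots (48.8 and 50.0 arbitrary units). The SD given with a ratio is the technical SD over the spots of 1 probe on the same pair of arrays. It holds no variation between cultures, and with 1 array per condition no test between the conditions was made and no p-value is given. A spot marked as an outlier by the scanner software on either array was left out, which removed 209 of the 2590 spots (8.07%) and left 6 to 10 spots per transcript. Because these flags take away the most deviant spots, the SD given here is lower than with them (median 0.14 without and 0.16 with the flagged spots).

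Of the 259 transcripts, 189 (73.0%) were measured on both arrays, meaning that at least 50% of their used spots were well above background on each array and fewer than 50% were saturated. The share among probes printed once was 65.8%. A further 60 were dim on both arrays and have no ratio, 9 were dim on the siRNA-treated array only, and LOC388817 was saturated at 7 of its 9 used spots on the untreated array.

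The Ep-CAM probe, a single spot, did not rise well above background on the untreated or on the treated array, so the siRNA label could not be checked by its target. The marker lists did not set these cells apart on the arrays. Of 12 photoreceptor and retinoblastoma markers present, 8 were measured on both arrays, with CRX at 86.8 and MYCN at 259 on the untreated array, while NRL, NEUROD1 and RCV1 (recoverin) were not. Of the markers of fibroblasts 5 of 7 were measured, of endothelial cells 4 of 6, of leukocytes 5 of 6, and of Mueller glia and retinal pigment epithelium 4 of 6. The summed signal of the photoreceptor list was 992 and 997 on the untreated and treated arrays, and that of the fibroblast list 1419 and 1494. The brightest member of the photoreceptor and of the fibroblast list was higher (MYCN at 0.30 and THY1 at 0.16 on the log2 ratio scale). In the photoreceptor list NR2E3 was higher too (0.43, at signals of 21.4 and 29.5). Other members of these lists were lower, among them OTX2 (-0.47), CRX (-0.37), ARR3 (-0.21), DCN (-0.55) and COL3A1 (-0.51). COL1A1 and COL1A2 had 0.01 and 0.02. Each was read from the brightest probe of its gene.

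The sequences of the repeated probes that carry the largest differences are shown by their first 30 bases, 5′ to 3′, of the 60 bases of each probe, together with the brighter HBD probe and the repeated HBG1 probe, which read the nearest relatives of HBB. No base is in capitals, since no shared motif is at issue.
HBB: gtccaactactaaactgggggatattatga
HBD: tgatggcctggctcacctggacaacctcaa
HBG1: actgagctcactgcccatgatgcagagctt
NFKB2: ggccacacgcctcttgacctcacttgcagc
APOE: gccttccaggcccgcctcaagagctggttc
UCHL5: caacatcctaattggctcagtgcacgtttg
On hg17, the build named by the files, the probes lie at chr11:5203294-5203353 for HBB, chr11:5211834-5211893 for HBD, chr11:5226110-5226169 for HBG1 and chr1:189717001-189717060 for UCHL5, all on the minus strand. The NFKB2 probe lies on the plus strand at chr10:104151043-104151219, a stretch of 177 bases for 60 bases of probe, and the APOE probe on the plus strand at chr19:50104213-50104272. No annotation of hg17 was used here, so the exon or untranslated region that a probe reads is not given.

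A single transcript, HBB, reached a log2 ratio of 1 or more, and none of the 189 was lower by -1 or less. Over all 26975 measured probes on the arrays, 0.793% were higher and 0.801% lower at the same limits, and most of those were read from a single spot. The next transcript after HBB was NFKB2 at 0.69, and the one nearest to the lower limit was APOE at -0.94. The middle of the set was narrow. The median log2 ratio was -0.02, the 25th and 75th percentiles were -0.11 and 0.07, and 153 transcripts (81.0%) lay between -0.25 and 0.25. For the 26782 measured probes printed once the median was -0.03 and the percentiles were -0.19 and 0.12. At 0.5 on the log2 scale 4 transcripts were higher, against 3.91% of all measured probes, and 12 were lower, against 6.77%.

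**Figure D1:**
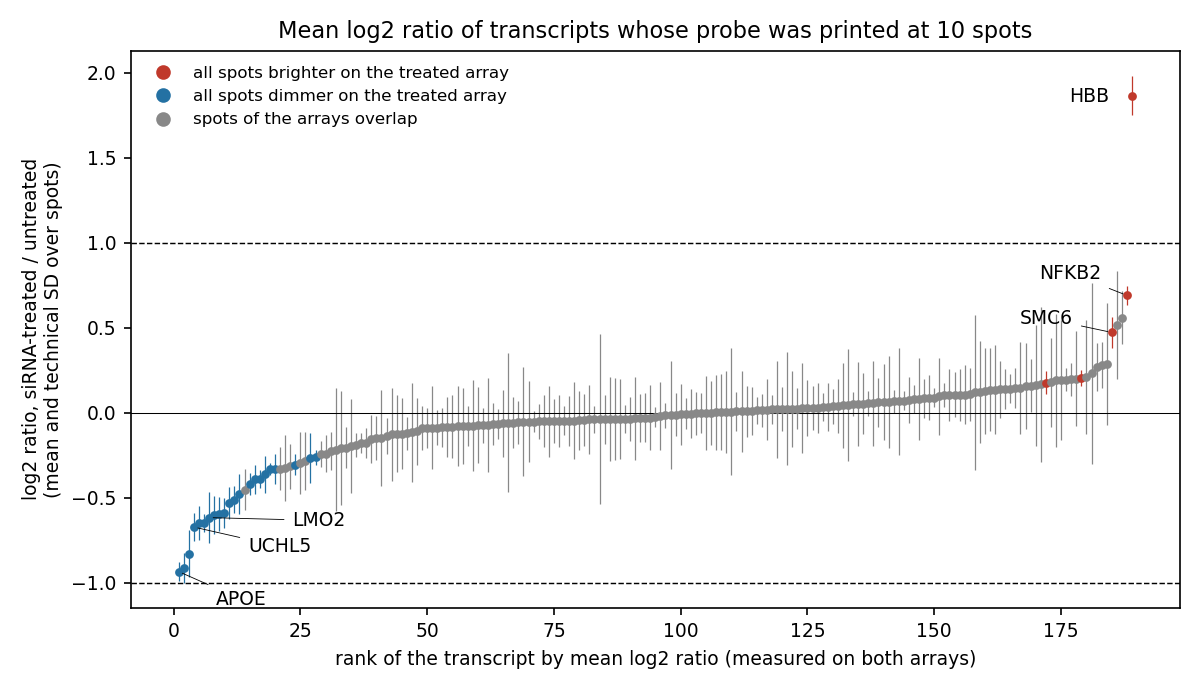
Mean log2 ratio (siRNA-treated over untreated) of the 189 transcripts measured on both arrays, in rank order, with bars for the technical SD over 6 to 10 spots and dashed lines at 1 and -1. HBB stands alone at 1.86, most transcripts lie near 0, and the lower end reaches -0.94 at APOE.

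HBB encodes the beta chain of adult hemoglobin. Its mean signal was 331 (spots 301 to 375) on the untreated array and 1235 (spots 1092 to 1387) on the siRNA-treated array. The highest untreated spot was well under the lowest treated spot, and all 8 used spots were higher, including the 1 that lay in the corner of the slide set apart further on. The log2 ratio was 1.86 with a technical SD of 0.12 and a range of 1.63 to 2.01 over spots, or 3.64-fold.

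The other globin probes stayed near 0. HBG1, a fetal gamma chain and also printed 10 times, had a mean signal of 31.4 and 37.7 and a log2 ratio of 0.21 with a technical SD of 0.33, so that its difference was smaller than the spread of its spots. The delta chain HBD, read by single spots, had -0.02 and -0.09, and the embryonic HBE1 had 0.18 and -0.10. All 10 measured probes of other globins lay between -0.10 and 0.23. An alpha globin probe of HBA2 at 158.8 units had 0.02, while another HBA2 probe and the HBA1 probe were saturated. Along its best ungapped alignment the HBB probe shared 17 to 21 bases with any other globin probe, and the longest run in common was 7 bases. Probes were compared with probes and not with whole transcripts, so binding of the HBB probe to another globin transcript was not tested.

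NFKB2, a subunit of the NF-kB transcription factor, had a mean signal of 529 (spots 467 to 592) untreated and 875 (spots 781 to 997) treated. All 10 spots were higher, and no treated spot was as low as the highest untreated spot. The log2 ratio was 0.69 (technical SD 0.06, 10 spots), with 0.69 in the corner of the array alone. RELA, another NF-kB subunit, had 291 and 337, a log2 ratio of 0.18 (technical SD 0.07, 7 spots), again without overlap. NFKB1, the subunit most like NFKB2, had 167 on both arrays and -0.04 (technical SD 0.08, 9 spots). Single spots of RELB and of the inhibitor NFKBIA had 0.00 and -0.19.

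CR608347 is a cDNA clone whose probe lies at chr6:31431929-31431988 (hg17, minus strand), in the region of the MHC class I genes, and closely related class I transcripts may bind it too. Its signal was 4815 (spots 4108 to 7007) and 7190 (spots 6161 to 8468), a log2 ratio of 0.56 (technical SD 0.16, 7 spots). All 7 spots were higher, but the 2 arrays overlapped. B2M, the light chain of class I molecules, was at 7145 and 8362 (0.20, technical SD 0.10, 9 spots), the repeated HLA-C probe at 228 and 236 (0.02), and the class II chain HLA-DRB1 at 4756 and 5600 (0.20, technical SD 0.05, 8 spots, no overlap). Single spots of HLA-B and HLA-C ranged from 0.00 to 0.51, while HLA-E had -0.53, -0.11 and 0.50 at its 3 probes. Among all 19 measured transcripts of the immune surface, antigen presentation and NF-kB group, 17 lay within 0.25 of 0, with a median of 0.02. Of the 19, 3 were higher without overlap, against 2.59% of all measured probes printed 10 times.

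SMC6, a component of a complex that acts in DNA repair, was higher without overlap, with 2281 (spots 2012 to 2743) untreated and 3236 (spots 2854 to 3566) treated, a log2 ratio of 0.47 (technical SD 0.09, 10 spots). The other 6 measured repair transcripts lay between -0.05 and 0.06, among them RAD50, WRN and PARP1. LRP1, a receptor that takes up lipoproteins, had 0.52 (technical SD 0.32, 10 spots) at signals of 21.4 and 30.9, close to background. EDN1 (0.29), TNF (0.28), MAGEA6 (0.27), CDK2 (0.23) and MDM2 (0.20) followed, and in each of them the spots of the 2 arrays overlapped.

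**Figure D2:**
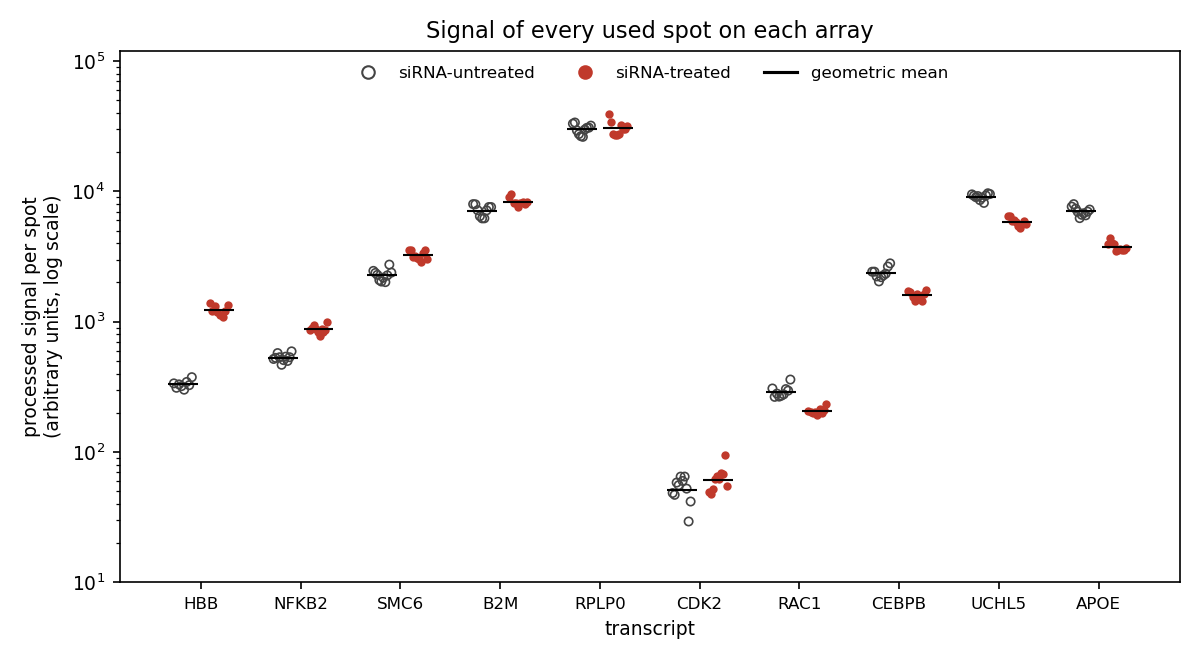
Processed signal (arbitrary units, log axis) of every used spot of 10 transcripts on the untreated array (open circles) and the siRNA-treated array (filled), with lines at the geometric means. The spots separate fully for HBB, NFKB2 and SMC6 upward and for RAC1, CEBPB, UCHL5 and APOE downward, while those of RPLP0 and CDK2 overlap.

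APOE, the lipid carrier apolipoprotein E, was the lowest of the measured transcripts. Its signal was 7040 (spots 6234 to 7982) untreated and 3771 (spots 3489 to 4350) treated. All 10 spots were lower without overlap, at a log2 ratio of -0.94 (technical SD 0.05, range -1.01 to -0.85), 1.91-fold lower. ENST00000374189, a predicted transcript that the files do not pair with a gene name, had 3373 and 1835, a log2 ratio of -0.91 (technical SD 0.09, 9 spots). Both were separated on every used spot.

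Further transcripts between -0.68 and -0.50 came from several functions. UCHL5, a deubiquitinase of the proteasome, had 9116 and 5861 (-0.67, technical SD 0.08, 10 spots), and KIAA1212, now named CCDC88A and known as an actin-binding protein, had 794 and 518 (-0.65, technical SD 0.06, 10 spots). The chemokine CXCL12 had 368 and 240 (-0.65, technical SD 0.10, 8 spots). Of the 12 measured transcription and chromatin factors, 4 were in this range, against 6.77% of all measured probes at -0.5 or less. They were LMO2 (123 and 82.5, -0.62), ZZZ3 (180 and 121, -0.60), CEBPB (2373 and 1603, -0.60) and the chromatin remodeler SMARCAD1 (193 and 132, -0.59), with technical SDs of 0.15, 0.11, 0.10 and 0.09. The small GTPase RAC1 (292 and 206, -0.53) and beta-catenin, CTNNB1 (213 and 153, -0.51), closed the list. Each of the 12 lowest transcripts was lower on every used spot, without overlap between the arrays. LOC388817 was lower on all 9 spots, at least 1.50-fold, with its untreated side saturated.

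In all, 27 of the 189 transcripts had spots that did not overlap between the arrays, 5 higher and 22 lower. Among all 193 measured probes printed 10 times, the 4 left out of this set included, 2.59% were higher and 13% were lower in this way. The 5 were HBB, NFKB2, SMC6, HLA-DRB1 and RELA. In 143 transcripts single spots pointed both ways. With quantile normalization the split was 9 higher and 12 lower, so how many were lower without overlap depended on the scaling.

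Bright probes as a class were lower on the siRNA-treated array. Of the 19 transcripts over 1000 units on the untreated array, 4 were at -0.5 or less and the median was -0.33, and of the 2171 single-spot probes in the same range 26.1% were at -0.5 or less with a median of -0.26. Between 50 and 200 units the medians were -0.04 for the 80 repeated and -0.02 for the 11602 single probes. The lower values of APOE, ENST00000374189, UCHL5 and CEBPB stand on that background. With quantile normalization, which takes out such a trend, APOE had -0.59, ENST00000374189 -0.65, UCHL5 -0.33 and CEBPB -0.36. At lower signals the values hardly moved, with CXCL12 at -0.61 and LMO2 at -0.61. HBB (1.97) and NFKB2 (0.79) were somewhat higher under the same setting. Whether the trend belongs to the cells or to the arrays was not tested.

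The spread over spots followed the signal the other way. The median technical SD was 0.26 for the 41 transcripts under 50 units, 0.15 from 50 to 200, 0.10 from 200 to 1000 and 0.09 over 1000. None of the 41 dimmest was separated between the arrays, against 11 of the 19 brightest.

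**Figure D3:**
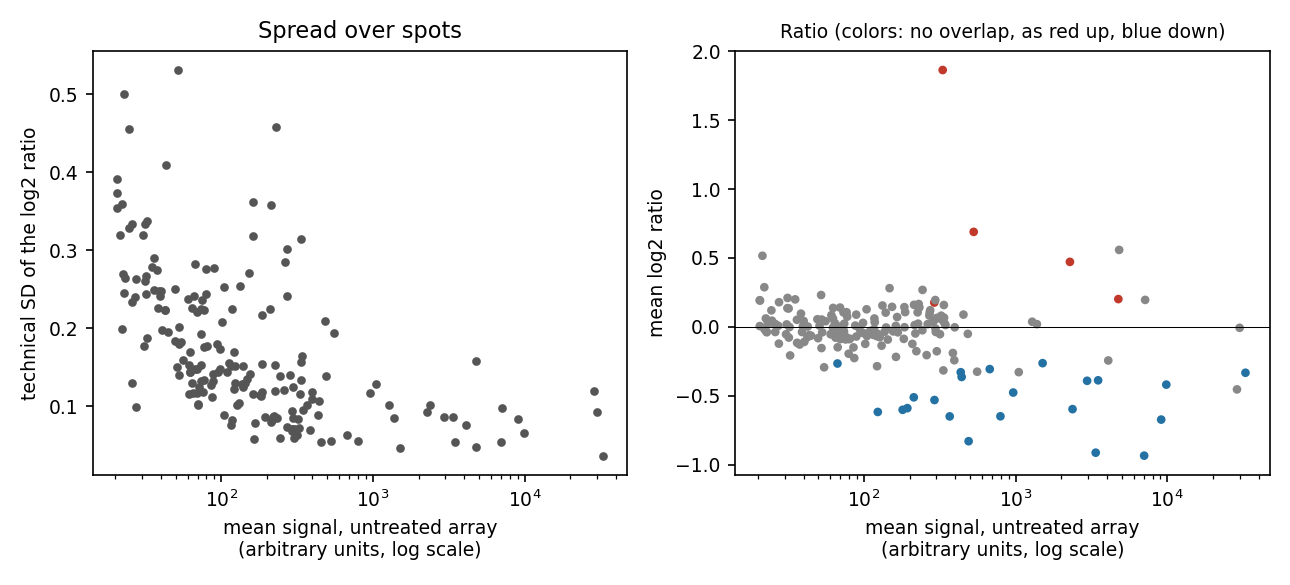
Technical SD over spots (left) and mean log2 ratio (right) of the 189 measured transcripts against the mean signal on the untreated array (log axis), with transcripts whose spots did not overlap in red (higher) and blue (lower). The SD falls from about 0.26 in the dim range to 0.09 in the bright range, and the bright transcripts lie mostly below 0.

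Cell cycle and mitosis transcripts were close to 0. All 15 measured members, of 17, lay between -0.09 (CENPE, a kinetochore motor) and 0.23 (CDK2), and none was separated between the arrays. CCNA2, cyclin A, had 292 and 310 (0.05, technical SD 0.07, 10 spots), and CDC2, now named CDK1, had 117 and 118 (-0.02, technical SD 0.08, 9 spots). CDKN1A, the p21 inhibitor, had 317 and 313 (-0.05, technical SD 0.06, 8 spots), CCND1 -0.08 and E2F1 0.05. A single-spot probe of CCND1 outside the corner of the slide set apart further on had -0.71. Another, inside that corner, where spots spread more widely, had 0.68. The probes of CCND1 thus did not share a direction. RB1, the gene lost in retinoblastoma, and the inhibitor CDKN1B were dim on both arrays. Among the 5 measured of 7 replication and chromatin assembly transcripts the range was -0.21 (DTL) to 0.03 (TERT). Among the measured transcripts of this set, these groups therefore held no value past 0.25 in either direction. The repeated probe of PCNA, left out of the set, is not counted here.

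The 12 measured apoptosis transcripts, of 13, ranged from -0.32 to 0.20. The survival factor BCL2L1 had 334 and 276 (-0.32, technical SD 0.13, 10 spots), and the death effector BAX had 394 and 342 (-0.24, technical SD 0.11, 10 spots). Single spots of other probes had -1.06 for BCL2L1 and -0.80 and -0.11 for BAX. CASP8, an initiator caspase, had 232 and 263 (0.14, technical SD 0.08, 8 spots), and the death ligand TNFSF10 had 0.15. FAS, PMAIP1 and TP73 lay within 0.05 of 0, and BCL2 had no ratio. None of the 12 was separated between the arrays.

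Of 33 kinases, GTPases and signaling adaptors 24 were measured, with a median of -0.08. Of the 24, 4 were lower without overlap, against 13% of all measured probes printed 10 times. Besides RAC1 these were the kinases GSK3B (964 and 710, -0.48, technical SD 0.12) and FYN (441 and 350, -0.36, technical SD 0.11), and RHOA, a GTPase of the actin cytoskeleton (32758 and 26650, -0.33, technical SD 0.04, 8 spots). With quantile normalization RHOA had -0.07. PRKCA had the highest value at 0.19, and AKT1, BRAF and MAPK3 lay between -0.08 and 0.11. JAK2, PTK2 and MAPK14 were among the 8 with no ratio. In the TGF-beta, Wnt and Notch group, SMAD2 was also lower without overlap (2961 and 2310, -0.39, technical SD 0.09, 10 spots), while SMAD3 and APC had 0.00.

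Cytokines and their receptors had a median of -0.01 over 11 measured of 16, with CXCL12 at one end and TNF at the other. The receptor CXCR4, to which CXCL12 binds, had a log2 ratio of 0.14 (technical SD 0.12, 10 spots). Extracellular matrix, protease and adhesion transcripts had a median of -0.04 over 15 of 20, and ITGB1, integrin beta 1, was lower without overlap (675 and 559, -0.31, technical SD 0.06, 10 spots). CDH1, the epithelial cadherin, had 0.19 with a technical SD of 0.35. Growth factors and receptor tyrosine kinases had a median of -0.06 over 7 of 11, with IGF1 lowest at -0.27 and VEGF, now VEGFA, highest at 0.07. EGFR, MET and RET were dim on both arrays. Nuclear receptors lay between 0.00 (ESR2) and 0.13 (VDR), and the 3 membrane transporters between 0.02 and 0.06.

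Reference genes, which many studies use to scale expression, did not share a value. RPLP0, a ribosomal protein, had 29984 and 30662 (-0.01, technical SD 0.09, 10 spots), ACTB 0.02 (technical SD 0.08) and B2M 0.20. PGK1 had -0.42 (technical SD 0.07), TBP -0.29 (technical SD 0.18) and TFRC -0.14. The 8 measured of 11 had a median of -0.22, and PGK1 was among those lower without overlap. With quantile normalization the median was -0.09, RPLP0 had 0.26 and B2M 0.54. HPRT1 and GUSB were dim on both arrays.

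Wider gene lists, read from the brightest measured probe of each gene, most of them printed once, are given beside the repeated transcripts as a description. At the limits used here 0.793% of all measured probes were at 1 or more and 0.801% at -1 or less. DNA replication genes had a median of -0.14 over 35 measured, with 1 at 1 or more. Of 46 cyclins, CDKs and their inhibitors 40 were measured, with a median of -0.08, 0 at 1 or more and 1 at -1 or less, and the 7 repeated ones had a median of 0.02. Of 30 mitosis and checkpoint genes 19 were measured, with a median of 0.17 and none past either limit, while the 2 repeated ones had -0.07. Immediate early genes had -0.16 over 19, with 2 at -1 or less. The list of 45 apoptosis and survival genes had 39 measured and a median of 0.01, and its 9 repeated transcripts also had 0.01. The 67 genes of MAP kinase, RAS and PI3K signaling had 58 measured, a median of -0.06 and 1 past the limit each way, against -0.08 for the 18 repeated ones. Transcription factors and chromatin genes had a median of -0.17 over 45 measured genes and -0.31 over 4 repeated ones. For metabolism and reference genes the medians were -0.14 over 37, with 6 at -1 or less, and -0.29 over 7. The 6 of 37 stand against the 0.801% of all measured probes, and the lower values of bright probes as a class were not taken into account. Immune cell surface and antigen presentation genes had 0.03 over 49 and 0.02 over 13, cytokines 0.00 over 51 and -0.01 over 11, and extracellular matrix genes -0.01 over 55 and -0.01 over 11. Blood, plasma and liver proteins had 0.04 over 31, with 1 past the higher limit, which is HBB itself, and -0.05 over 9. Of 45 neural and retinal genes 32 were measured, with a median of -0.02 and 1 at 1 or more, and none was among the repeated transcripts. The other 8 lists had medians from -0.13 (cytoskeleton) to 0.05 (interferon response), with at most 2 genes past each limit.

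Single spots differed in their spread by position. The corner made of rows 355 to 532 and columns 43 to 85, which was chosen with the positions of changed probes already known, held 229 of the used spots of measured transcripts. Taken against the mean of the same transcript outside the corner, spots within it had an SD of 0.34, and the 1516 spots outside it an SD of 0.16. A deviation of over 0.5 was found for 13.1% of corner spots and 1.19% of the others. The deviations went both ways, with a median of -0.03 in the corner. Of the spots well above background on both arrays, 3 spots of transcripts other than HBB reached a log2 ratio of 1, and all 3 lay in the corner. They were single spots of CDK2 (1.66, against a mean of 0.23), PTX3 (1.16, against 0.17) and GHRL (1.12, against 0.16). CDK2 and PTX3 also had technical SDs of 0.53 and 0.46, 2 of the 3 largest. Outside the corner CDK2 had -0.21 to 0.34 over 8 spots, and PTX3 -0.13 to 0.29 over 6.

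**Figure D4:**
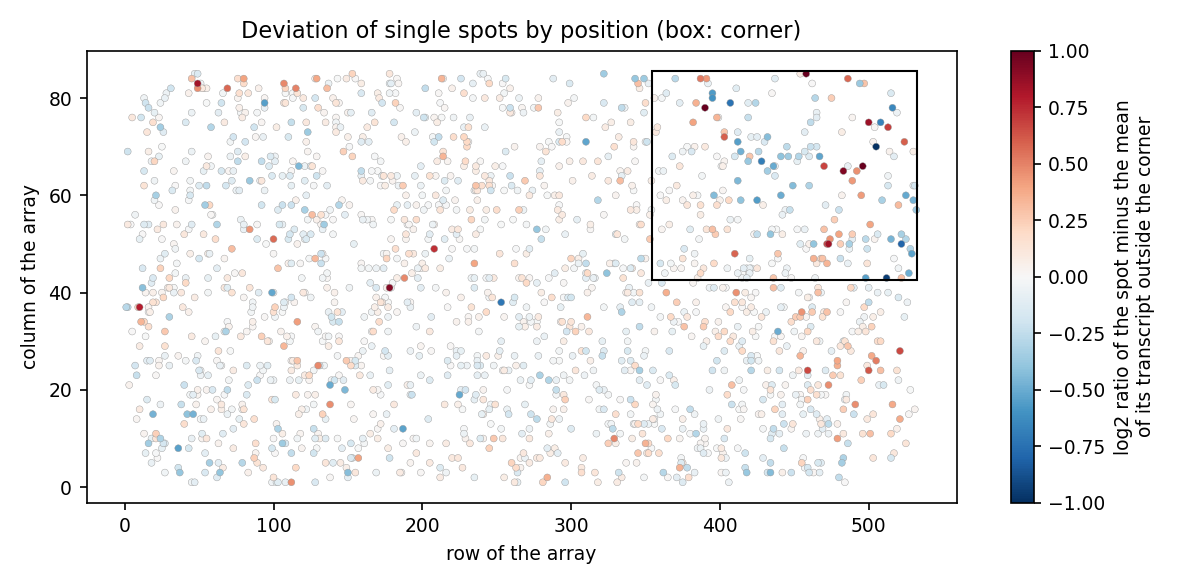
Row and column of every used spot of the measured transcripts, colored by its log2 ratio minus the mean of its transcript outside the corner (scale limited to -1 and 1). The box marks rows 355 to 532 and columns 43 to 85, where strongly colored spots of both signs crowd together.

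The authors' table for the whole series gives 1 value per probe. For all 264 probes printed 10 times it equaled, without tolerance, the raw median signal of the spot printed last on the array. Of the 259 last spots, 121 (46.7%) lay in the corner, against 15.1% of all spots of these transcripts. The last spot deviated from the mean by an SD of 0.32 over the 189 measured transcripts and by over 0.5 for 20 of them. The first spot did so by an SD of 0.20 and for 6. Flagged spots were left out of the mean but kept as last spots, and 33 of the 189 last spots carried an outlier flag. PRKCD, a protein kinase, had a mean of -0.05 (technical SD 0.21, 9 spots) and 1.90 at its last spot, which carried an outlier flag. BC067244 had -0.12 and 1.02, GSTP1 -0.12 and 0.97, SRC 0.07 and 0.85, and ESR2 0.00 and -0.59. The last spots of BC067244, GSTP1 and HBB were also flagged as outliers. All these last-spot ratios are of the processed signal. From the authors' raw median signals PRKCD had 1.78, BC067244 0.37, GSTP1 0.98, SRC 0.78 and ESR2 0.13. HBB had 1.89 and NFKB2 0.72 at the last spot, close to their means.

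**Figure D5:**
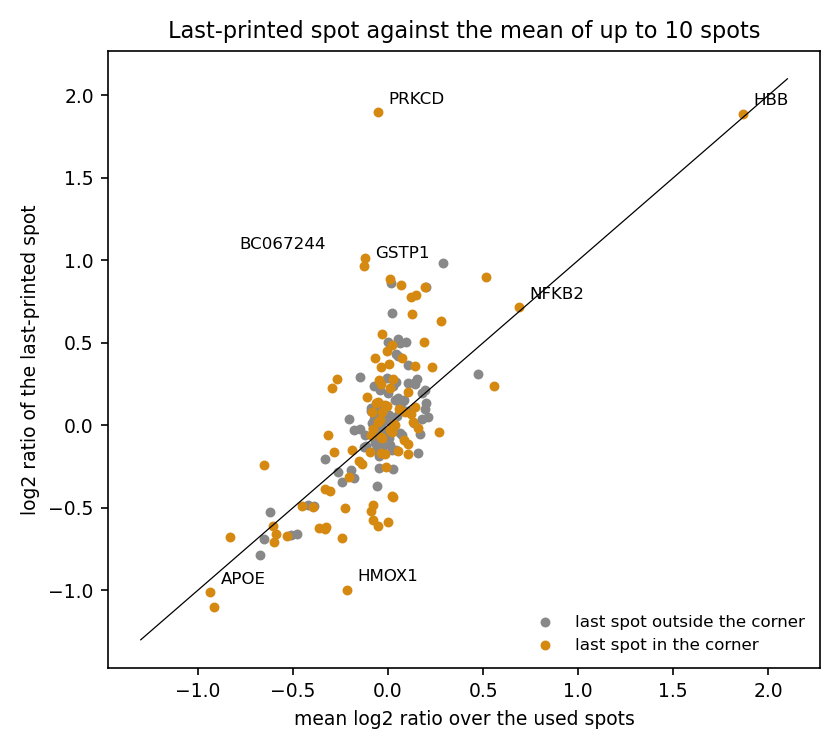
Log2 ratio of the processed signal at the spot printed last against the mean over the used spots for the 189 measured transcripts. Last spots in the corner are in orange. The series table keeps the raw median signal of the last spot. HBB, NFKB2 and APOE lie near the diagonal, while PRKCD (1.90 against -0.05), GSTP1 (0.97 against -0.12) do not.

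For 60 of the measured transcripts the arrays also held other measured probes of the same gene, each printed once, 79 in all. Their median absolute distance from the repeated probe was 0.25, and 40 of the 79 were within 0.25. A further 15 were over 0.5 away, 7 of them in the corner described above. They included the probes of BCL2L1, BAX and CCND1 already given, ZAP70 (-0.71 against -0.11 for the repeated probe), MMP1 (-0.70 against -0.04) and, in the corner, ESR1 (0.77 against 0.03). Across these probes Pearson's r was 0.36 and Spearman's rho 0.36, a description over probes that share both arrays. Of the 12 lowest transcripts, 7 had such a probe, 9 probes in all, of which 8 were below 0 and 2 at -0.5 or less. Among them UCHL5 had -0.89 and KIAA1212 had -0.60 and -0.12. RAC1 had -0.28 and -0.32, CTNNB1 -0.15, CXCL12 -0.07 and CEBPB 0.00, so these were nearer to 0 than the repeated probe. IGF1 was the only gene with a probe at least 1 away, its repeated probe having -0.27 (technical SD 0.15, 8 spots) and the others -1.41 and 0.09. HBB, NFKB2, SMC6, APOE and LMO2 had no other measured probe.

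The 60 transcripts without a ratio included 8 of the 33 kinases and adaptors, 5 of the 16 cytokines and receptors, and 4 each of the repair, matrix, growth factor and transcription factor groups, with BRCA1, BRCA2, FN1, EP300 and CREBBP among them. For these a difference was not detectable at the background of the arrays. The 9 dim on the treated array only, among them AGT, COL13A1, HSP90AA1, SHC1, NOC3L, ATM and IPO8, had untreated signals of 15.7 to 19.1, near the lowest signal well above background (14.9 untreated and 17.5 treated). After scaling, the untreated mean over that lowest treated signal was 1.11-fold for SHC1, 1.07 for HSP90AA1, 1.05 for ATM, 1.03 for IPO8 and 1.02 for NOC3L. The other 4 allow no fold. The direction follows from the filter, which these transcripts passed on the untreated array only. Spots pointed both ways for SHC1 (3 higher, 7 lower), NOC3L (3 and 5) and ATM (1 and 8). HSP90AA1 and IPO8 were lower on all 9 used spots. These folds therefore set no lower limit on a difference.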

How the data were processed

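Total RNA was labelled with Cy3 and hybridized to one-color Agilent arrays. The paper refers to biologic replicates, but only 1 array per condition was read here. The deposited intensity values were made by the authors with Feature Extraction, version 9.5.3.1 per the file headers (another version is given in the series text). The processed signal of a spot is its intensity after background subtraction and correction of trends within the array, in arbitrary units and without scaling between arrays. The authors' series table holds raw median intensity values.

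Control spots and outlier spots were removed. Signals were scaled to the 50th percentile of their array with a floor of 0.01, and log2 ratios were averaged over spots. A transcript that was saturated on 1 array has a bound only. For one dim on 1 array, the fold over the lowest signal well above background is given where it exceeds 1. Limits of 1 and -1 were used for calls. Python 3.11.15, pandas 2.3.3 and limma 3.58.1 (normexp) were used, and the code was tested on simulated data. Names were matched to RefSeq by accession for 240 of 259 transcripts.

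The transcripts, their roles and the gene lists were chosen with earlier results of these data known. Transcripts named first were those past 1 or -1, the 12 highest and 12 lowest, the 3 with the largest technical SD, the 3 brightest, those with a deviating or dim probe, and the highest and lowest of each gene list. Others were named after their values were seen, and some transcripts are not reported here. Alternatives were other scalings, background corrections, spot and dim filters, floors, summaries and limits. The number of arrays limits the precision.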

Additional observations from a re-analysis of the deposited data

How the results depend on the processing

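HBB was the only transcript at a log2 ratio of 1 or more under 12 of the 13 alternative settings listed at the start that kept this limit, with values from 1.07 to 1.97 over all 16 settings. The exception was the authors' series table, with 2 higher (HBB and PRKCD). Normexp background correction with an offset of 50 gave 11 lower transcripts, a median log2 ratio of -0.21 and 70 transcripts without overlap between the arrays, and NFKB2 at 0.08. On the treated array 1 spot had a raw signal below its local background, and normexp without that spot (tried only once the values had been seen) gave 1 higher, 0 lower, a median of -0.01 and 31 without overlap. Of the limits in the series text, read as log2 ratios, 0.58 gave 2 higher (HBB and NFKB2) and -0.86 gave 2 lower (APOE and ENST00000374189). Also added after seeing the data were the last-printed spot alone, with 3 higher (HBB, PRKCD and BC067244) and 2 lower (APOE and ENST00000374189), and the corner spots alone, with 3 higher (HBB, CDK2 and PTX3) and 1 lower (ENST00000374189). Under the other settings the counts past 1 and -1 and the total without overlap stayed within 1.5 times of those reported, and the median of the whole set moved by less than the median technical SD. Counts by direction moved more. Transcripts at 0.5 or more, 4 as reported, became 7 with quantile normalization, 11 in the series table and 1 with normexp, and those at -0.5 or less, 12 as reported, became 9, 8 and 35. The last-printed spot alone gave 22 and 22, and the corner alone 7 and 21. Without overlap, 5 higher and 22 lower became 9 and 12 with quantile normalization, 12 and 58 with normexp, and 3 and 20 with outlier spots kept. Normexp without the spot below its local background gave 3 at 0.5 or more and 7 at -0.5 or less. Without overlap it gave 6 higher and 25 lower. Of 49 named transcripts, quantile normalization moved 14 by more than their technical SD (2 changed sign), normexp moved 29 (15 changed sign), and 20 moved in the authors' series values (8 changed sign). Normexp without the spot below its local background moved 9 of the 49 (1 changed sign). Group medians moved too. Matrix transcripts went from -0.04 to 0.15 in the series table and -0.18 with normexp. Cytokines went from -0.01 to 0.17 and -0.28, and reference genes from -0.22 to -0.05 and -0.65. Normexp without that spot gave -0.03 for matrix transcripts, 0.02 for cytokines and -0.11 for reference genes. A group median near 0 thus has no settled sign. No paired analysis was possible because each condition had 1 array. The spread between cultures, and differences of transcripts near background, were beyond these arrays.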
